A study of Mus musculus with 16 samples.

Results

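The genes examined were 10 genes of membrane phospholipid remodelling and choline metabolism, out of 55487 genes in the deposited count table: the choline transporter gene Slc5a7, the choline kinase gene Chka and the lysophospholipid acyltransferase genes Lpcat1, Lpcat2, Lpcat3, Lpcat4, Mboat1, Mboat2, Mboat7 and Lclat1. They were chosen by function, as a family, because Lpcat4 and Slc5a7 had been seen to differ between the genotypes of this study. The levels of Lpcat4 and Slc5a7 are therefore a description and carry no test, while the other 8 genes were tested. All 10 passed the filter on low counts.

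Phosphatidylcholine and phosphatidylethanolamine are the main phospholipids of animal membranes. Cells build them from diacylglycerol and an activated headgroup, a route that for choline begins with uptake and with phosphorylation by choline kinase. Phospholipases then remove a fatty acid, and lysophospholipid acyltransferases put another in its place, which sets how saturated the membrane is. In the mammary gland the same enzymes also supply the membranes of growing epithelium and of milk fat globules.

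RNA sequencing had been done on 16 cultures of mouse mammary organoids, small epithelial bodies that grow in culture from tissue. WT organoids (n = 3) came from normal breast, and organoids with mutant PIK3CA (n = 4), with mutant HER2 (n = 4) or with both, the double mutant (n = 5), came from breast tumors. The culture medium of all held EGF and conditioned medium that supplied Rspo1 and Noggin. The comparison asked how expression differs between WT mice, mice with either mutation and mice with both. The series title names the alleles HER2V777L and PIK3CAH1047R. HER2 is a growth factor receptor with tyrosine kinase activity, and PIK3CA is a catalytic subunit of phosphoinositide 3-kinase. The promoter or Cre that drives the alleles, the age of the animals and whether samples of a genotype came from separate animals are not given in the sources used here. The p-values below then measure the spread between these samples, which may be technical. In every comparison with WT, genotype and tissue source coincide and cannot be told apart. The interaction estimates below include WT and carry the same limit. A difference of tissue source shared by all mutants would enter them.

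Total counts ran from 45545182 to 64168308 per sample, and 3 counts corresponded to 0.0468 to 0.0659 CPM, which are counts scaled by a sample's total. All 5 luminal epithelial markers were detected in each genotype, with a summed level of 1685 to 4753 CPM. The defining marker Ptprc of blood cells was at 8.70 to 43.2 CPM in WT and at most at 2.73 CPM in the mutants. Double mutant replicates 2 and 3 stood apart from the other double mutants on the second principal component of all genes, at -35.6 and -10.9 against 33.6 to 47.8. The log2 fold changes of the double mutants were therefore also fitted without both. RNA was measured in bulk, so that fewer cells of a type and less RNA per cell cannot be told apart.

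Of the promoters, those of Slc5a7 and Chka are shown because these genes open the route of choline and because their 250-base windows end where the gene annotated by GENCODE begins. Sequences are RefSeq's (GRCm38.p6), read 5′ to 3′ on the strand of the gene. Capitals mark the GC box GGGCGG, the CCAAT box CCAAT and the TATA box TATAAA, searched on both strands. Slc5a7 is on the minus strand (chr17:54299035-54299284), and Chka is on the plus strand (chr19:3851523-3851772).
Slc5a7: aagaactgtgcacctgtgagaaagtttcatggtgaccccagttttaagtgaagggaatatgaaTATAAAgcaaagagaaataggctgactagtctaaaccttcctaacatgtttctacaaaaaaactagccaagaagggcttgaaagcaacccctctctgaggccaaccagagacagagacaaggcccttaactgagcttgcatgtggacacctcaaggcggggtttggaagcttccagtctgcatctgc
Chka: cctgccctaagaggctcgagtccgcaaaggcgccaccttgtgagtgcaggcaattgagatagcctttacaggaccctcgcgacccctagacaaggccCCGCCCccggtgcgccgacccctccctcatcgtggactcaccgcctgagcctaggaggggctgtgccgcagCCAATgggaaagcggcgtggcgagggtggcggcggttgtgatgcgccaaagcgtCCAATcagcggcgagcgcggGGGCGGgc
The Slc5a7 window had a GC content of 45.6% and a single match, a TATA box that begins 187 bases before the start. The Chka window had a GC content of 68% with GC boxes that begin 153 and 8 bases before the start and CCAAT boxes at 82 and 28 bases. All 10 genes matched the RefSeq table. Slc5a7 was the only one of the 10 without a GC box in its window, and its GC content was the lowest of the 10, while that of Lpcat4 was the highest at 79.6%. The Lpcat4 window held 3 GC boxes and none of the other motifs. Also searched was the gamma-activated site TTCNNNGAA, which was in 0 of the 10 windows. Over 32851 promoter windows of the same length, 32.7% held the GC box, 33.8% the CCAAT box, 12.4% the TATA box and 7.02% the gamma-activated site. These matches describe letters and not bound sites.

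Slc5a7 (ENSMUSG00000023945, chromosome 17, 54273590 to 54299034, minus strand, GRCm38) encodes the high-affinity choline transporter, best known from cholinergic neurons. Its level was 54.7, 14.3 and 23.7 CPM in the WT samples and 16.8, 20.9, 36.7 and 16.2 CPM in the PIK3CA mutant samples. In HER2 mutants it was 0.641, 0.366, 0.223 and 1.13 CPM, which came from 34, 19, 10 and 55 counts. In double mutants it was 13.7, 0.944, 0.393, 4.58 and 4.30 CPM in replicates 1 to 5. WT and PIK3CA mutants overlapped, all HER2 mutants and all double mutants lay below both, and double mutant replicates 2 and 3 lay within the range of the HER2 mutants.

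On the log2 scale, the fitted Slc5a7 difference was -5.70 (SE 0.962) in HER2 mutants against WT, a level 52.2-fold lower, and -5.26 (SE 0.927) against PIK3CA mutants. For double mutants it was -2.69 (SE 0.776) against WT, -2.24 (SE 0.734) against PIK3CA mutants and 3.02 (SE 0.834) against HER2 mutants, where the samples overlapped. Without double mutant replicates 2 and 3 these were -2.04, -1.59 and 3.67. The difference between PIK3CA mutants and WT was -0.45 (SE 0.811), and it became 0.25 without WT replicate 1, the highest sample. The double mutant exceeded the sum of the single-mutant differences by 3.47 (SE 1.14) on the log2 scale. These differences chose the gene and are given as a description.

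Genes that mark cholinergic neurons were near 0 in every genotype. Chat, which makes acetylcholine from choline, had at most 0.0413 CPM in any sample and no count in HER2 mutants. Slc18a3, the vesicular acetylcholine transporter, was at 0.143 to 0.792 CPM. Of the 9 Schwann cell and neuron markers, Sox10, which mammary epithelium also expresses, held most of the summed level at 378 to 1061 CPM, and none of the others passed 4.77 CPM. Markers of hormone-sensing luminal cells summed to 205 to 261 CPM in WT, 180 to 246 in PIK3CA mutants, 129 to 150 in HER2 mutants and 119 to 314 CPM in double mutants, with all 6 markers detected in each. Replicate 2 was the lowest double mutant at 119 CPM, and replicate 3 had 204 CPM. The 6 markers differed in direction. Prlr, the highest of them, Foxa1 and Pgr had their lowest means in HER2 mutants, at 88.6, 10.8 and 10.2 CPM. In the order WT, PIK3CA, HER2 and double mutants, Esr1 had means of 35.2, 18.4, 22.7 and 18.1 CPM. Areg had 1.40, 2.06, 6.66 and 10.8 CPM, and Cited1 had 0.44, 2.06, 0.545 and 2.86 CPM. Basal or myoepithelial markers summed to 465 to 991 CPM in WT and 479 to 1295 CPM in PIK3CA mutants. In HER2 mutants they summed to 240 to 866 CPM, and in double mutants to 479 to 959 CPM. Krt5, Trp63, Acta2 and Myh11 had their lowest means in HER2 mutants, at 34.1, 66.0, 41.0 and 1.23 CPM. Krt14 ran from 32.0 to 507 CPM there, and Oxtr was lowest on average in double mutants, at 49.0 CPM. The part of hormone-sensing luminal or basal cells in the Slc5a7 levels was not tested.

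Chka (ENSMUSG00000024843, chromosome 19, 3851773 to 3894369, plus strand) encodes choline kinase alpha, the first enzyme of the route from choline to phosphatidylcholine. Its level was 175, 111 and 169 CPM in WT and 124, 116, 145 and 118 CPM in PIK3CA mutants. It was 168, 202, 277 and 288 CPM in HER2 mutants and 160, 246, 250, 190 and 203 CPM in double mutants. All HER2 and all double mutant samples were above all PIK3CA mutant samples, and WT overlapped each of them. Chka was higher in HER2 than in PIK3CA mutants, with a log2 fold change of 0.90 (SE 0.197, adjusted p 0.0191 by edgeR). The call was lost without PIK3CA mutant replicate 1 (0.89, edgeR adjusted p 0.0566), 2 (0.84, adjusted p 0.0735) or 4 (0.87, adjusted p 0.0571), with a range of 0.00796 to 0.0735 over the 8 fits lacking 1 replicate. The difference was 0.74 between double and PIK3CA mutants (SE 0.188, adjusted p 0.0894 by edgeR), 0.63 between HER2 mutants and WT (SE 0.214, adjusted p 0.0750) and 0.47 between double mutants and WT (SE 0.205, adjusted p 0.151). None of these passed the threshold.

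**Figure D1:**
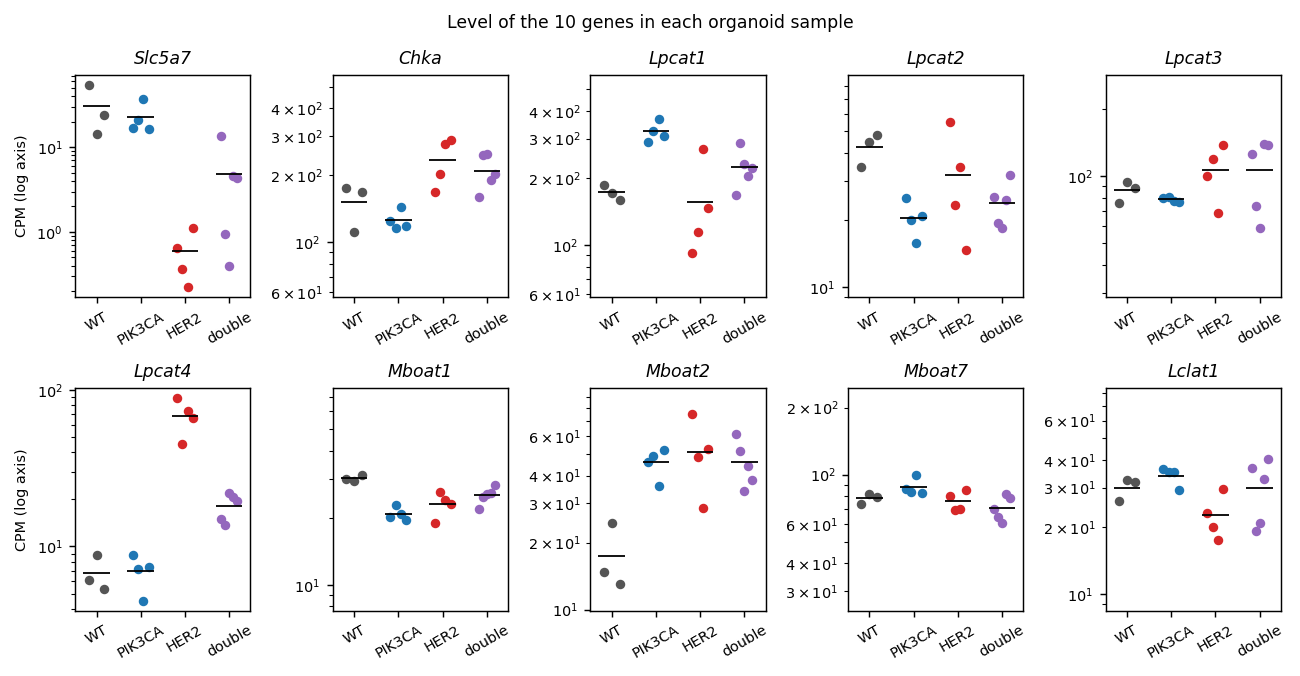
Level of each of the 10 genes in each sample, in CPM on log axes, by genotype (WT n = 3, PIK3CA n = 4, HER2 n = 4, double n = 5), with a line at the mean. Lpcat4 was above all other genotypes in the 4 HER2 samples, Slc5a7 was lowest in HER2 samples and in 2 of the 5 double mutants, and Mboat2 was lowest in the 3 WT samples.

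Lpcat4 (ENSMUSG00000027134, chromosome 2, 112239468 to 112247111, plus strand) encodes an acyltransferase of lysophosphatidylcholine and lysophosphatidylethanolamine. WT samples had 6.10, 8.85 and 5.39 CPM, and PIK3CA mutants had 8.76, 7.21, 4.52 and 7.45 CPM. HER2 mutants had 88.8, 45.3, 73.8 and 65.9 CPM, and double mutants had 14.9, 13.7, 22.1, 20.6 and 19.4 CPM. The 3 levels did not overlap: all HER2 mutants were above all double mutants, which were above all WT and PIK3CA mutant samples, and the last 2 genotypes overlapped.

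The fitted log2 difference of Lpcat4 was 3.34 (SE 0.295) in HER2 mutants against WT, a level 10.1-fold higher, and 3.29 (SE 0.262) against PIK3CA mutants. In double mutants it was 1.42 (SE 0.263) against WT, 1.38 (SE 0.237) against PIK3CA mutants and -1.91 (SE 0.229) against HER2 mutants, a level 3.77-fold lower. Between PIK3CA mutants and WT it was 0.05 (SE 0.262), and it was negative in 3 of the 7 fits lacking 1 replicate. The double mutant fell short of the sum of the single-mutant differences by a log2 estimate of -1.96 (SE 0.352). Without double mutant replicates 2 and 3, that estimate was -1.95. The direction of these differences is that of the choice of the gene. The summed level of 6 markers of alveolar or secretory cells, which include milk proteins, was 3330 to 5194 CPM in WT, 8818 to 13729 in PIK3CA mutants, 12392 to 37630 in HER2 mutants and 5993 to 21205 CPM in double mutants. The markers did not move together. In the order WT, PIK3CA, HER2 and double mutants, Csn3 had means of 4184, 10976, 12191 and 13118 CPM. Lalba had 87.5, 9.40, 72.3 and 31.0 CPM, and Elf5 had 200, 288, 294 and 294 CPM. Csn2, Ltf and Wap had their highest means in HER2 mutants, at 8962, 2358 and 4.46 CPM. In double mutants these had 7.04, 161 and 1.51 CPM. The part of alveolar or secretory cells in the Lpcat4 levels was not tested. No annotated gene overlaps Lpcat4 or Slc5a7 in GENCODE M21.

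Mboat2 (ENSMUSG00000020646, chromosome 12, 24830879 to 24964397, plus strand) encodes a membrane-bound acyltransferase that adds mainly oleic acid to lysophosphatidylethanolamine and lysophosphatidylcholine. It had 14.8, 24.4 and 13.0 CPM in WT and 46.0, 49.1, 36.0 and 52.3 CPM in PIK3CA mutants. HER2 mutants had 75.4, 48.3, 28.6 and 52.8 CPM, and double mutants had 61.6, 51.4, 34.0, 44.0 and 38.2 CPM. Every mutant sample was above every WT sample, and the mutant genotypes overlapped each other.

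Mboat2 was higher than in WT in PIK3CA mutants (log2 fold change 1.40, SE 0.302, adjusted p 0.0134 by edgeR), HER2 mutants (1.56, SE 0.304, adjusted p 0.00543 by edgeR) and double mutants (1.40, SE 0.293, adjusted p 0.00562 by edgeR). These 3 comparisons share the WT samples. The call in PIK3CA mutants was lost without WT replicate 1 (1.30, edgeR adjusted p 0.0732) or WT replicate 3 (1.22, adjusted p 0.104), in a range of 0.00723 to 0.104 over 7 fits. That in double mutants was lost without WT replicate 3 (1.22, edgeR adjusted p 0.0502, the highest of 8 fits, the lowest being 0.00393). The call in HER2 mutants held in all 7 such fits and was lost in a fit of these 7 samples alone (edgeR adjusted p 0.0679, the highest of 6 other settings). Between mutant genotypes, Mboat2 was not called, with log2 differences of 0.16 for HER2 against PIK3CA (SE 0.268), -0.16 for double against HER2 (SE 0.254) and 0.0004 for double against PIK3CA mutants (SE 0.254). The interaction estimate was -1.56 (SE 0.390, adjusted p 0.0705 by edgeR), which passed with DESeq2 (adjusted p 0.0107, with 0.0107 to 0.0828 over 6 other settings). It also passed with edgeR without WT replicate 2 or HER2 mutant replicate 3 (adjusted p 0.0266 to 0.233 over 16 fits). This estimate cannot be told apart from a difference of tissue source shared by all mutants.

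Mboat1 (ENSMUSG00000038732, chromosome 13, 30136489 to 30246717, plus strand) encodes a related enzyme that acts on lysophosphatidylethanolamine and lysophosphatidylserine. WT samples had 29.8, 29.3 and 31.1 CPM, and PIK3CA mutants had 20.1, 22.9, 20.8 and 19.5 CPM. HER2 mutants had 18.9, 26.1, 24.1 and 23.1 CPM, and double mutants had 22.0, 24.8, 25.7, 25.7 and 28.0 CPM. Every mutant sample was below every WT sample, in the opposite direction to Mboat2. Mboat1 was lower in PIK3CA mutants than in WT, with a log2 fold change of -0.53 (SE 0.129, adjusted p 0.0264 by edgeR). This result was lost in 7 of 7 fits lacking 1 replicate, with edgeR adjusted p 0.0553 to 0.150 and log2 fold changes of -0.55 to -0.50. The difference from WT was -0.38 in HER2 mutants (SE 0.129, adjusted p 0.0722 by edgeR) and -0.25 in double mutants (SE 0.123, adjusted p 0.205 by edgeR). Its interaction estimate was 0.66 (SE 0.173, adjusted p 0.0819 by edgeR).

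**Figure D2:**
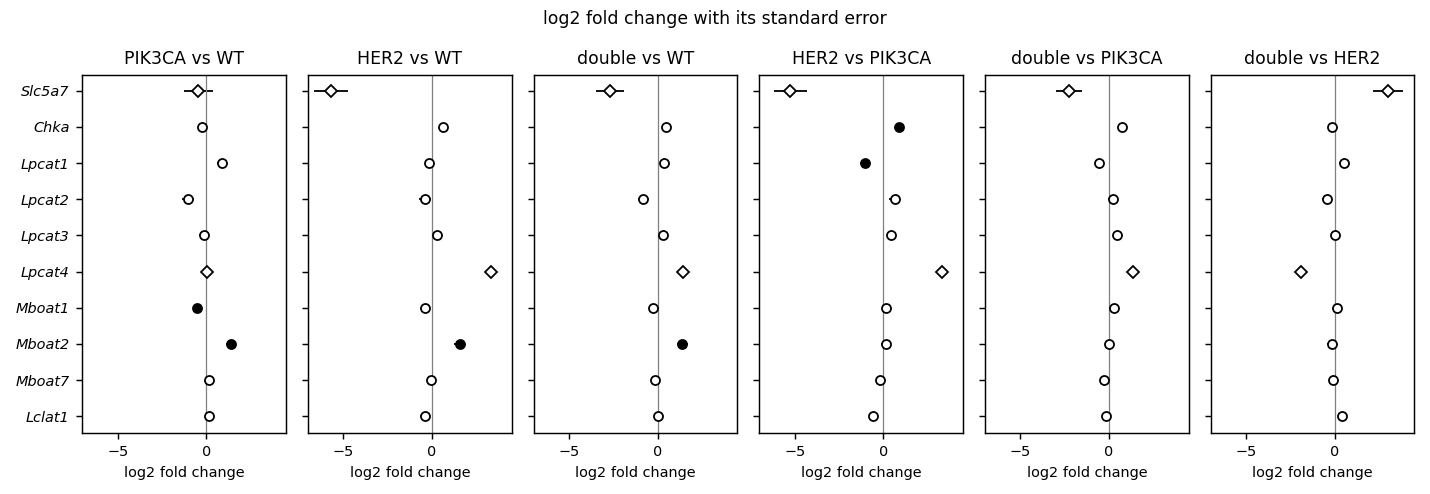
Log2 fold change of the 10 genes in the 6 pairs of genotypes, with its standard error as a line where it exceeds the symbol. Filled circles passed an edgeR adjusted p of 0.05, open circles did not, and diamonds mark Lpcat4 and Slc5a7, which were not tested. Mboat2 is filled in all 3 comparisons with WT.

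Lpcat1 (ENSMUSG00000021608, chromosome 13, 73467197 to 73516422, plus strand) encodes a lysophosphatidylcholine acyltransferase known for making the saturated phosphatidylcholine of lung surfactant. WT samples had 186, 172 and 159 CPM, and PIK3CA mutants had 290, 326, 367 and 310 CPM. HER2 mutants had 92.3, 115, 271 and 146 CPM, and double mutants had 167, 287, 232, 205 and 222 CPM. All PIK3CA mutants were above all samples of each other genotype, and replicate 3 stood at the top of the HER2 mutants.

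Lpcat1 was lower in HER2 than in PIK3CA mutants, with a log2 fold change of -1.05 (SE 0.258, adjusted p 0.0313 by edgeR). This result was lost in 7 of the 8 fits lacking 1 replicate, all but the one without HER2 mutant replicate 3, with edgeR adjusted p 0.00148 to 0.0881 over the 8. Fitted on these 8 samples alone, the edgeR adjusted p was 0.108, within 0.00411 to 0.108 over 6 other settings. Against WT, PIK3CA mutants differed by 0.91 (SE 0.282, adjusted p 0.0859 by edgeR), which did not pass, while DESeq2 and a fit of only these samples called it (0.00122 to 0.113 over 6 other settings). The double mutant differed by -0.54 from PIK3CA mutants (SE 0.241, adjusted p 0.376 by edgeR) and by 0.51 from HER2 mutants (SE 0.244, adjusted p 0.284 by edgeR). Without HER2 mutant replicate 3 the latter became 0.92 and passed (edgeR adjusted p 0.0132, with 0.0132 to 0.498 over 9 such fits).

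Lpcat2 (ENSMUSG00000033192, chromosome 8, 92855339 to 92919279, plus strand) encodes an enzyme that also makes platelet-activating factor in inflammatory cells. It had 34.7, 44.7 and 48.0 CPM in WT and 25.2, 20.1, 15.8 and 20.8 CPM in PIK3CA mutants. HER2 mutants had 55.3, 23.5, 34.6 and 14.6 CPM, and double mutants had 25.5, 19.3, 18.5, 24.7 and 31.7 CPM. All PIK3CA and all double mutants were below all WT samples, while HER2 mutants spanned the whole range. The log2 difference from WT was -1.05 in PIK3CA mutants (SE 0.327, adjusted p 0.0867 by edgeR) and -0.83 in double mutants (SE 0.309, adjusted p 0.0961 by edgeR), and neither passed. In a fit of only the 2 genotypes, each did (edgeR adjusted p 0.00448 and 0.0253, the lowest over 6 and 7 other settings, which reached 0.126 and 0.303). The 7 markers of macrophages and other myeloid cells summed to 1027 to 3505 CPM in WT, 610 to 772 in PIK3CA mutants, 271 to 449 in HER2 mutants and 239 to 424 CPM in double mutants. Cd14 alone was at 492 to 600 CPM in WT, 573 to 752 in PIK3CA, 123 to 372 in HER2 and 183 to 403 CPM in double mutants. It thus overlapped WT in PIK3CA mutants. Adgre1 was at 8.62 to 43.7 CPM in WT and at most at 0.354 CPM in PIK3CA, 5.36 in HER2 and 0.0554 CPM in double mutants. Lyz2 was at 405 to 2649 CPM in WT and at most at 7.84 CPM in PIK3CA, 142 in HER2 and 0.337 CPM in double mutants. Itgam was at most at 1.28 CPM in HER2 mutants and at 0.0196 CPM in double mutants, the latter under 3 counts. The part of myeloid cells in the Lpcat2 difference was not tested.

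Lpcat3 (ENSMUSG00000004270, chromosome 6, 124663027 to 124704418, plus strand) encodes the enzyme that places polyunsaturated fatty acids into phosphatidylcholine. It had 86.5 ± 9.46 CPM (SD, n = 3) in WT, 78.7 ± 1.88 CPM (SD, n = 4) with mutant PIK3CA, 106 ± 29.6 CPM (SD, n = 4) with mutant HER2 and 107 ± 37.9 CPM (SD, n = 5) in double mutants. The double mutants were 125, 73.6, 58.8, 139 and 138 CPM, with replicates 2 and 3 below all others of that genotype. Lpcat3 was not called in any comparison. Lclat1 (ENSMUSG00000054469, chromosome 17, 73107985 to 73243368, plus strand), which encodes lysocardiolipin acyltransferase, had a similar split in the double mutants, with 36.7, 19.2, 20.9, 32.8 and 40.4 CPM. Its means were 30.04 ± 3.46 CPM (SD, n = 3) in WT, 33.9 ± 3.12 CPM (SD, n = 4) with mutant PIK3CA, 22.6 ± 5.27 CPM (SD, n = 4) with mutant HER2 and 29.98 ± 9.51 CPM (SD, n = 5) in double mutants. It was not called in any comparison, but without double mutant replicates 2 and 3 its double mutant level exceeded that of HER2 mutants (log2 fold change 0.70, edgeR adjusted p 0.0331, with 0.0331 to 0.614 over 7 settings).

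Mboat7 (ENSMUSG00000035596, chromosome 7, 3677789 to 3693523, minus strand) encodes the enzyme that places arachidonic acid into phosphatidylinositol, the lipid that phosphoinositide 3-kinase phosphorylates. It was the steadiest of the 10 genes between genotypes, with 78.4 ± 4.16 CPM (SD, n = 3) in WT, 88.1 ± 7.81 CPM (SD, n = 4) with mutant PIK3CA, 76.4 ± 7.84 CPM (SD, n = 4) with mutant HER2 and 71.0 ± 8.96 CPM (SD, n = 5) in double mutants. Its largest difference was -0.31 between double and PIK3CA mutants (SE 0.113, adjusted p 0.259 by edgeR), where all double mutants were lower. Lpcat3 shares 334 exonic bases with Emg1 and Mboat7 shares 277 with Tsen34, each on the opposite strand. Whether the counting used strand is not given in the sources used here, so reads in these stretches, 10.2% and 3.32% of the exonic bases of Lpcat3 and Mboat7, cannot be assigned. Lpcat2, Mboat2 and Chka share exonic bases only with non-coding genes, at 1.58 CPM or less on average.

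The 8 tested genes were then set beside the whole table. In PIK3CA mutants against WT, 1 was higher and 1 lower, where 1.49% of all 24252 genes tested were higher and 3.03% lower. In HER2 mutants against WT, 1 was higher (4.75% of all genes) and 0 lower (5.63%), and in double mutants against WT 1 was higher (5.03%) and 0 lower (6.72%). HER2 against PIK3CA mutants gave 1 higher (2.21%) and 1 lower (2.20%). Double against HER2 mutants gave 0 of 8 by edgeR (1.03% of all genes higher and 1.47% lower), 0 at an unadjusted p under 0.05 and 0 with DESeq2. Double against PIK3CA mutants gave 0 by edgeR (0.309% and 0.363% of all genes), 4 at an unadjusted p under 0.05 and 1 with DESeq2, Chka. The interaction gave 0 by edgeR (0.515% of all genes positive and 0.544% negative), 2 at an unadjusted p under 0.05 and 2 with DESeq2, Mboat1 and Mboat2. The shares in brackets are of edgeR calls only. Over all genes, DESeq2 called 1715 in double against HER2 mutants, where edgeR called 606. It called 666 in double against PIK3CA mutants and 966 in the interaction, where edgeR called 163 and 257. For the unadjusted p, no share of all genes is given here. The median log2 fold change of the 8 was 0.02 in PIK3CA mutants, -0.09 in HER2 mutants and 0.15 in double mutants against WT, beside -0.03, 0.03 and 0.01 over all genes.

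To compare the genes with each other, levels were divided by the length of their annotated exons. In WT the order, in CPM per kb, was Lpcat1 at 37.2, Lpcat3 at 26.5, Chka at 12.6, Lpcat2 at 12.5, Mboat7 at 9.41, Mboat1 at 8.21, Lclat1 at 6.14, Slc5a7 at 5.48, Lpcat4 at 2.40 and Mboat2 at 1.82. Of neighbours in that order, Chka (SD 2.92) and Lpcat2 (SD 2.05) did not differ beyond their spread, nor did Slc5a7 (SD 3.75) and either Lclat1 (SD 0.707) or Lpcat4 (SD 0.647), nor Lpcat4 and Mboat2 (SD 0.641). In HER2 mutants Lpcat4, second from the bottom in WT, had 24.2 ± 6.43 CPM per kb (SD, n = 4), beside 33.7 ± 17.2 for Lpcat1 and 32.5 ± 9.05 for Lpcat3. Slc5a7 had 0.104 ± 0.0705 CPM per kb there (SD, n = 4), the lowest of the 10. The place of Mboat7 and Chka depended on the length used, since with the longest transcript in place of all exons their means over the 16 samples went from 9.36 to 23.0 and from 15.3 to 39.5 CPM per kb.

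The summed level of the 8 acyltransferase genes, in CPM per kb, was 104 ± 4.84 (SD, n = 3) in WT, 130 ± 5.70 (SD, n = 4) with mutant PIK3CA, 125 ± 12.0 (SD, n = 4) with mutant HER2 and 121 ± 12.5 (SD, n = 5) in double mutants. The makeup of the sum was read as the mean share of single genes, of which Lpcat4 was chosen for its difference between genotypes. Lpcat4 held 2.29% of it in WT, 1.91% in PIK3CA mutants, 19.2% in HER2 mutants and 5.39% in double mutants. Lpcat1 held 35.8%, 53.4%, 26.4% and 40.3% in the same order, and Lpcat2 12.0%, 4.67%, 7.53% and 5.82%. Between samples, the Lpcat1 share ran from 33.2% to 40.3% in WT and from 49.8% to 57.5% in PIK3CA mutants. It ran from 15.8% to 42.5% in HER2 mutants and from 31.2% to 52.1% in double mutants. The Lpcat4 share ran from 14.7% to 25.0% in HER2 mutants and reached 7.56% in double mutants. With the longest transcript as the length, the share of Lpcat4 was 2.06% in WT and 17.4% in HER2 mutants. Without double mutant replicates 2 and 3, the sum in double mutants was 127 ± 10.3 CPM per kb (SD, n = 3), with 5.09% Lpcat4 and 33.6% Lpcat1. Both the sum and these shares include Lpcat4 and are given as a description. Of the sum, Lpcat4 made up 2.40 CPM per kb in WT and 2.47 in PIK3CA mutants on average. It made up 24.2 in HER2 mutants and 6.43 CPM per kb in double mutants, so the sum partly reflects the choice of this gene.

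**Figure D3:**
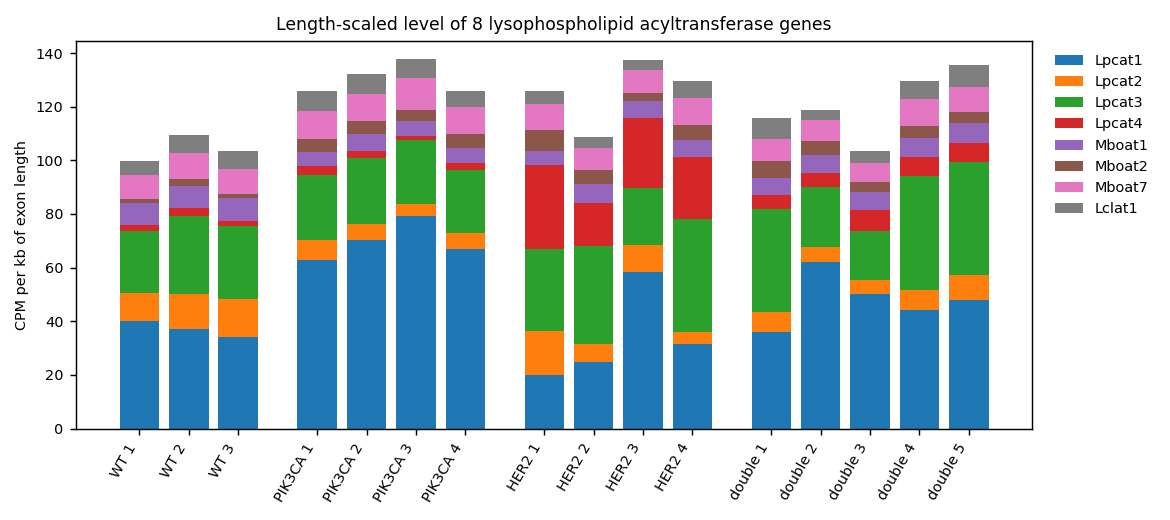
Level of the 8 acyltransferase genes in each sample, stacked, in CPM per kb of exon length. The Lpcat4 section is widest in the 4 HER2 samples, where it averaged 19.2% of the sum, and the Lpcat1 section is widest in the 4 PIK3CA samples, at 53.4% on average.

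Other genes of phospholipid metabolism were read from 4 lists with 84 genes, of which 70 were tested. In PIK3CA mutants against WT, 3 were higher and 2 lower, in HER2 mutants against WT 9 and 6, and in double mutants against WT 7 and 5. HER2 against PIK3CA mutants gave 7 higher and 2 lower, double against HER2 mutants 3 and 3, and double against PIK3CA mutants 1 and 0. As shares of the 70, higher and lower calls against WT were 4.29% and 2.86% in PIK3CA mutants (1.49% and 3.03% of all genes), 12.9% and 8.57% in HER2 mutants (4.75% and 5.63%) and 10% and 7.14% in double mutants (5.03% and 6.72%). They were 10% and 2.86% in HER2 against PIK3CA mutants (2.21% and 2.20% of all genes), 4.29% each in double against HER2 mutants (1.03% and 1.47%) and 1.43% and 0% in double against PIK3CA mutants (0.309% and 0.363%). In HER2 mutants against WT, the median of the 70 was -0.08 beside 0.03 over all genes. The median was -0.06 in PIK3CA mutants and 0.02 in double mutants against WT, beside -0.03 and 0.01 over all genes. Without WT replicate 1 or 3, the counts of called genes went from 15 to 8 or 6 for HER2 mutants against WT and from 12 to 4 for double mutants against WT.

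In the first steps of glycerolipid synthesis, all 15 listed genes were tested. Gpat4, which encodes an acyltransferase of glycerol 3-phosphate, had 34.9 ± 1.82 CPM (SD, n = 3) in WT, 31.9 ± 2.97 CPM (SD, n = 4) with mutant PIK3CA, 73.4 ± 23.5 CPM (SD, n = 4) with mutant HER2 and 40.4 ± 7.04 CPM (SD, n = 5) in double mutants. It was higher in HER2 mutants than in WT (log2 fold change 1.07, SE 0.219, adjusted p 0.00713 by edgeR) and PIK3CA mutants (1.20, SE 0.200, adjusted p 0.00457 by edgeR), with all samples above, and both calls held in every fit without a replicate. The Gpat4 call against WT was lost in the pair alone (edgeR adjusted p 0.0697, the highest of 6 other settings). Gpat4 was lower in double than in HER2 mutants (-0.86, SE 0.186, adjusted p 0.0251 by edgeR), where samples overlapped. This was lost without HER2 mutant replicate 4 or double mutant replicate 4 or 5 (edgeR adjusted p up to 0.0611 over 9 fits). It was also lost with replicate number as a block, without double mutant replicates 2 and 3 and in the pair alone (adjusted p 0.00186 to 0.182 over 7 edgeR and DESeq2 settings). Lpin1, a phosphatidate phosphatase that makes diacylglycerol, was higher than in WT in all mutants, with log2 fold changes of 1.03 in PIK3CA (edgeR adjusted p 0.0214), 0.92 in HER2 (adjusted p 0.0258) and 1.08 in double mutants (adjusted p 0.00721). The Lpin1 call held without each replicate in double mutants, and was lost in 5 of 7 such fits in PIK3CA and 6 of 7 in HER2 mutants. Agpat5 was higher (0.87, edgeR adjusted p 0.0140) and Agpat4 lower (-0.92, edgeR adjusted p 0.0495) in double mutants than in WT, calls lost in 2 and 7 of 8 such fits.

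All 13 headgroup genes were tested. Pcyt2, which encodes the regulated step of the ethanolamine route, exceeded WT in HER2 mutants (log2 fold change 0.92, edgeR adjusted p 0.0383) and double mutants (0.84, adjusted p 0.0433), calls lost in 5 of 7 and 6 of 8 fits without a replicate. Selenoi, the ethanolamine phosphotransferase, was higher in HER2 mutants than in WT (0.63, adjusted p 0.0136 by edgeR, lost in 2 of 7 fits) and PIK3CA mutants (0.59, adjusted p 0.0220, lost in 3 of 8 fits). It was also higher in double mutants than in WT (0.49, edgeR adjusted p 0.0305, lost in 6 of 8 fits). Etnk2, an ethanolamine kinase, was higher in double mutants than in WT (1.06, edgeR adjusted p 0.0333, lost in 6 of 8 fits). In the choline route, Pcyt1a, which encodes the rate-limiting enzyme, was lower in HER2 mutants than in WT (-0.41, edgeR adjusted p 0.0469, lost in 6 of 7 fits).

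Of the 16 genes of choline transport, oxidation and acetylcholine, 11 were tested. Slc44a1, a choline transporter of wide expression, had 120 ± 12.3 CPM (SD, n = 3) in WT, 169 ± 10.3 CPM (SD, n = 4) with mutant PIK3CA, 87.7 ± 10.5 CPM (SD, n = 4) with mutant HER2 and 123 ± 10.5 CPM (SD, n = 5) in double mutants. It was lower in HER2 than in PIK3CA mutants, with all samples lower (log2 fold change -0.95, SE 0.114, adjusted p 0.000602 by edgeR), a call that held in all 8 fits without a replicate. Slc44a1 was also lower in HER2 mutants than in WT (-0.45, SE 0.121, adjusted p 0.0272 by edgeR), higher in PIK3CA mutants than in WT (0.50, SE 0.123, adjusted p 0.0288) and higher in double than in HER2 mutants (0.49, SE 0.108, adjusted p 0.0269), calls lost in 4 of 7, 5 of 7 and 3 of 9 such fits. In HER2 mutants both Slc5a7 and Slc44a1 were thus at their lowest, at mean levels of 0.589 and 87.7 CPM. The related gene Slc44a3 was higher than in WT in all mutants, by 0.70 in PIK3CA (edgeR adjusted p 0.0263), 0.77 in HER2 (adjusted p 0.0114) and 0.67 in double mutants (adjusted p 0.0150), calls lost in 5 of 7, 1 of 7 and 2 of 8 fits.

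Among phospholipases and other remodelling genes, 31 of 40 were tested. Mfsd2a, a transporter that takes up lysophosphatidylcholine, ranged from 2.44 to 9.98 CPM in WT, 6.06 to 13.7 in PIK3CA mutants, 23.1 to 139.6 in HER2 mutants and 22.1 to 53.9 CPM in double mutants. It was higher in HER2 mutants than in WT (log2 fold change 3.54, SE 0.590, adjusted p 0.00229 by edgeR) and PIK3CA mutants (3.19, SE 0.515, adjusted p 0.00379 by edgeR) and higher in double mutants than in WT (2.60, SE 0.551, adjusted p 0.00601 by edgeR). These calls held in every fit without a replicate, while that of double against PIK3CA mutants (2.24, SE 0.482, adjusted p 0.0493 by edgeR) was lost in 8 of 9. Lpgat1, an acyltransferase of lysophosphatidylglycerol, had 41.4 ± 3.23 CPM (SD, n = 3) in WT, 63.1 ± 8.08 CPM (SD, n = 4) with mutant PIK3CA, 128 ± 46.7 CPM (SD, n = 4) with mutant HER2 and 52.9 ± 10.3 CPM (SD, n = 5) in double mutants. It was higher in HER2 mutants than in WT (1.64, SE 0.236, adjusted p 0.00104 by edgeR) and PIK3CA mutants (1.03, SE 0.210, adjusted p 0.0133 by edgeR, lost in 2 of 8 fits), and lower in double than in HER2 mutants (-1.28, SE 0.197, adjusted p 0.00463 by edgeR). The last 2 calls were also lost with replicate number as a block and in the pair alone. Their edgeR adjusted p reached 0.0642 over 6 and 0.0672 over 7 other settings. In the interaction, edgeR called 1 of the 70 genes, Lpgat1, where the double mutant was below the sum of the single-mutant changes (-1.89, SE 0.304, edgeR adjusted p 0.00980). That call held in 16 of 16 fits lacking 1 replicate and without double mutant replicates 2 and 3. It was lost with replicate number as a block (edgeR adjusted p 0.0704, the highest of 6 other settings). In the same 70 genes, 12 had an unadjusted p under 0.05, and DESeq2 called 3 positive and 3 negative. Over all genes, DESeq2 called 966 in the interaction, where edgeR called 257. The share of all genes at the unadjusted threshold is not given here, so the 12 are not read as a result about these genes.

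Pla1a, a phospholipase of phosphatidylserine, was lower than in WT in PIK3CA mutants (log2 fold change -4.85, SE 0.716, adjusted p 0.00135 by edgeR) and double mutants (-4.73, SE 0.650, adjusted p 0.000366 by edgeR), calls that held without each replicate. It was also lower in HER2 mutants (-2.53, SE 0.644, adjusted p 0.0222 by edgeR, lost in 3 of 7 fits), where samples overlapped. WT ranged from 2.20 to 12.8 CPM and the mutants from 0.145 to 2.97 CPM. Pnpla7, a lysophospholipase, was lower than in WT in PIK3CA (-1.10, edgeR adjusted p 0.0176), HER2 (-1.02, adjusted p 0.0186) and double mutants (-1.53, adjusted p 0.000698), with WT at 32.2 to 84.4 CPM and overlap with WT in the single mutants. Its call was lost in 5 of 7, 2 of 7 and 0 of 8 fits. Plaat3, a phospholipase and acyltransferase, was lower than in WT in HER2 (-0.74, SE 0.144, adjusted p 0.00535 by edgeR) and double mutants (-0.54, SE 0.137, adjusted p 0.0184), calls lost in 0 of 7 and 2 of 8 fits. Both Plaat3 calls were lost in the pair alone, that in HER2 mutants at an edgeR adjusted p of 0.0532. That in double mutants was also lost without the filter and without double mutant replicates 2 and 3 (edgeR adjusted p up to 0.0755 over 7 other settings). Pla2g15, the lysosomal phospholipase, was lower in double mutants than in WT (-1.29, edgeR adjusted p 0.0140, lost in 2 of 8 fits). Fibroblast markers, all 6 detected, summed to 325 to 1899 CPM in WT and 26.2 to 624 CPM in the mutants, and their part, like that of the myeloid markers above, was not tested for these genes.

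Plaat1, related to Plaat3, was called lower in HER2 mutants than in WT (edgeR adjusted p 0.00385) and PIK3CA mutants (adjusted p 0.00901) and higher in double than in HER2 mutants (adjusted p 0.0307, lost in 2 of 9 fits). It had 0.567 to 1.34 CPM in WT and 0 to 0.102 CPM in HER2 mutants, where 3 counts are 0.0567 to 0.0659 CPM by the total alone, so the size of that difference is not given. Pla2g6, a calcium-independent phospholipase, was higher in HER2 mutants than in WT, with all samples above (log2 fold change 0.82, edgeR adjusted p 0.00507), a call that held in all 7 fits. It was also higher than in PIK3CA mutants (0.59, edgeR adjusted p 0.0301) and lower in double than in HER2 mutants (-0.53, adjusted p 0.0493), calls lost in 6 of 8 and 8 of 9 fits. Tafazzin, which remodels cardiolipin, was higher in HER2 than in PIK3CA mutants (0.49, edgeR adjusted p 0.0191, lost in 3 of 8 fits), and is named after its values were seen. Enpp2, which encodes autotaxin and makes lysophosphatidic acid, had a higher level in double than HER2 mutants (2.50, SE 0.629, adjusted p 0.0488 by edgeR, lost in 7 of 9 fits). The cytosolic phospholipase Pla2g4f (1.83 for HER2 mutants less WT, edgeR adjusted p 0.0381) was called at levels of at most 2.38 CPM, a call lost in 3 of 7 fits. Pla2g4c was called higher in HER2 than in PIK3CA mutants (edgeR adjusted p 0.0412, lost in 5 of 8 fits), at levels of at most 1.17 CPM. In PIK3CA mutants it had 0.0443 to 0.254 CPM, where 3 counts are 0.0468 to 0.0630 CPM by the total alone. The size of the Pla2g4c difference is therefore not given.

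**Figure D4:**
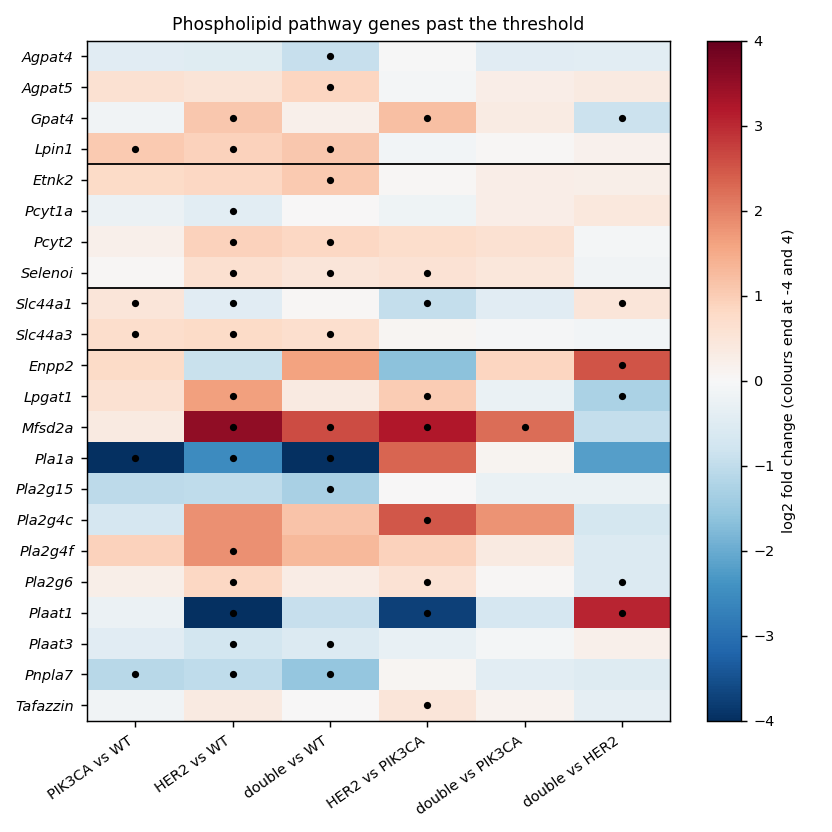
Log2 fold change of the 22 phospholipid pathway genes called in at least 1 of the 6 pairs of genotypes, as colour, with a dot where the edgeR adjusted p was under 0.05; lines separate the 4 lists. Mfsd2a is the reddest row, at 3.54 in HER2 mutants against WT, and Pla1a is blue in all 3 comparisons with WT.

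The genes with the pattern most like that of Lpcat4 were sought among 12699 genes, as the smallest root-mean-square difference of centred log2 CPM over the 16 samples. They were Plcxd2 (0.588), Btn2a2 (0.595), Socs2 (0.603), Susd1 (0.646) and Shisa4 (0.655), beside 1.36 for a gene that does not vary. Socs2, which encodes a suppressor of cytokine signalling, had mean levels of 16.6 CPM in WT, 27.5 in PIK3CA mutants, 192 in HER2 mutants and 39.3 CPM in double mutants. The other 4 had means of at most 13.4 CPM. For Slc5a7, the 5 closest included Lgr5 (1.31), Bace2 (1.33), Dpysl5 (1.34) and Gucy1a1 (1.40), beside 2.52 for a gene that does not vary. Lgr5, a receptor for R-spondins and a marker of epithelial stem cells, had mean levels of 53.2 CPM in WT, 18.1 in PIK3CA mutants, 1.75 in HER2 mutants and 10.1 CPM in double mutants. These genes were picked for their likeness over the same samples, so their levels are a description.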

How the data were processed

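Counts per gene were deposited by the authors as raw read counts for 16 samples, made with STAR and featureCounts on mm10 per the submitters' processing notes, with settings and strandedness not given in the sources used here. A second deposited table, of normalized values, was not used here. Of 55774 rows, 287 repeats of a gene were dropped, and filterByExpr kept 24252 genes. The quasi-likelihood test of edgeR (version 4.0.16, in R 4.3.3) was fitted with TMM scaling and genotype as the factor, 2-sided, on all 16 samples, with Benjamini-Hochberg adjustment over all genes and a threshold of 0.05. The standard error is the log2 fold change divided by the root of F. The interaction is the double mutant less both single mutants plus WT, so a difference of tissue source shared by all mutants enters it. The code was tested on simulated data.

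The 10 genes and the lists were chosen with earlier results of these data known. Named are all 10, up to 6 called pathway genes per direction and pair, by size of change, and the 5 genes most like Lpcat4 and Slc5a7, of which 1 is not reported here. Table symbol Taz stands for tafazzin. Any 2 samples held the same count in at most 2.86% of genes. The alternatives were RLE and upper-quartile scaling, no filter, DESeq2 (version 1.42.0), a replicate block, the samples of a pair alone, leaving out each replicate and, chosen after seeing the data, leaving out double mutant replicates 2 and 3. Correlations between same-numbered samples ran from -0.163 to 0.273, and in no comparison did every pair exceed 0.1, the limit set. The block is therefore an alternative only. All 4 pairs were positive in double against HER2 mutants (0.0711 to 0.273, mean 0.157, beside -0.0407 for other pairs). All 3 pairs were also positive in PIK3CA mutants against WT (0.0390 to 0.0455). Whether the numbers link samples is not given in the sources used here.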

Additional observations from a re-analysis of the deposited data

Results flagged for a closer look

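In the PIK3CA mutants, Lclat1 was at 29.3 CPM in replicate 4, apart from 35.1, 35.1 and 36.3 CPM in the other 3. Its gap to the nearest sample was 0.832 of the range of the group. This was 1 of 30 groups of samples examined in this way, where chance alone sets apart about 1 in 20.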

How the results depend on the processing

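The least covered of the 10 genes was Slc5a7, with 10 to 55 counts per HER2 mutant. WT, the smallest group, has 3 samples. None of the alternatives below changed the direction of a called log2 fold change of the 8 tested genes. For Lpcat4 and Slc5a7, no difference changed sign except that between PIK3CA mutants and WT, where Lpcat4 went to -0.01 with the replicate block and from -0.10 to 0.28, and Slc5a7 from -0.79 to 0.25, with a replicate left out. The cause was not tested for any change below.

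Among the 8 tested genes, PIK3CA mutants against WT gave 2 calls, 1 without the filter (Mboat1 at -0.51, not called), and 4 with DESeq2 (Lpcat1 at 0.92, Lpcat2 at -1.04) and in the fit of the pair alone (0.91 and -1.05). HER2 mutants against WT gave 1 call, 3 with DESeq2 (Mboat1 at -0.37, Chka at 0.63) and 0 in the pair alone (Mboat2 at 1.59). Double mutants against WT gave 1 call and 2 in the pair alone (Lpcat2 at -0.81). Double against HER2 mutants gave 0 calls and 1 without double mutant replicates 2 and 3 (Lclat1 at 0.70). Double against PIK3CA mutants gave 0 calls and 1 with DESeq2 (Chka at 0.74) and in the pair alone (0.75). HER2 against PIK3CA mutants gave 2 calls and 1 in the pair alone (Lpcat1 at -1.06). In the interaction, DESeq2 called Mboat1 at 0.65 and Mboat2 at -1.57. The replicate block changed no call of the 8 genes. Over all genes, DESeq2 called 1869 in PIK3CA mutants against WT, where edgeR called 1096. In HER2 mutants against WT it called 3754, where edgeR called 2518.

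Of the pathway genes, the replicate block gave 3 calls in place of 5 in PIK3CA mutants against WT, 0 in place of 6 in double against HER2 mutants and 0 in place of 1 in double against PIK3CA mutants. DESeq2 gave 11 in double against HER2 mutants and 3 in double against PIK3CA mutants. Calls over all genes moved the same way. With the block they went from 1096 to 794 in PIK3CA mutants against WT. In double against HER2 mutants they went from 606 to 118 with the block and to 1715 with DESeq2. In double against PIK3CA mutants they went from 163 to 19 and to 666. Totals over all genes are not given here for pairs alone or for fits lacking 1 replicate. The pair alone gave 17 in PIK3CA mutants against WT, 4 in place of 15 in HER2 mutants against WT, 0 in double against HER2 mutants, 2 in double against PIK3CA mutants and 5 in place of 9 in HER2 against PIK3CA mutants.

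Differences near 0, none of them called, changed sign. For Lclat1 in double mutants against WT the value was 0.0062 with RLE scaling and with DESeq2, 0.013 without the filter, 0.016 in the pair alone and 0.29 without double mutant replicates 2 and 3. Upper-quartile scaling gave 0.013 for Mboat7 in HER2 mutants against WT, -0.066 for Lpcat3 in double against HER2 mutants and -0.0087 for Mboat2 in double against PIK3CA mutants, which was -0.0035 without the filter. The replicate block gave -0.12 for Lpcat3 in double against HER2 mutants. Without double mutant replicates 2 and 3, Mboat7 against HER2 mutants was 0.0046, Lclat1 against PIK3CA mutants 0.11 and the Chka interaction -0.072.

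With each replicate left out in turn, the calls among the 8 genes ranged from 0 to 1 in PIK3CA mutants against WT, 1 to 2 in HER2 mutants against WT, 0 to 1 in double mutants against WT and against HER2 mutants, and 0 to 2 in HER2 against PIK3CA mutants. Pathway calls ranged from 1 to 4, 6 to 17 and 4 to 11 in PIK3CA, HER2 and double mutants against WT, 1 to 7 in double against HER2 mutants, 0 to 1 in double against PIK3CA mutants and 4 to 14 in HER2 against PIK3CA mutants. In PIK3CA mutants against WT, Mboat1 ranged from -0.55 to -0.50 and Mboat2 from 1.22 to 1.72. In HER2 mutants against WT, Lpcat1 ranged from -0.55 to 0.040, Mboat1 from -0.45 to -0.30, Mboat7 from -0.096 to 0.0052 and Chka from 0.44 to 0.75. In double mutants against WT, Mboat2 ranged from 1.22 to 1.72 and Lclat1 from -0.13 to 0.12. In double against HER2 mutants, Lpcat1 ranged from 0.33 to 0.92, Lpcat3 from -0.16 to 0.16 and Mboat2 from -0.36 to 0.085. Mboat2 ranged from -0.13 to 0.091 in double and from -0.084 to 0.36 in HER2 against PIK3CA mutants, where Lpcat1 ranged from -1.46 to -0.87 and Chka from 0.78 to 1.03. Interaction estimates ranged from -0.58 to 0.012 for Lpcat1, -0.020 to 0.30 for Lpcat3, -1.88 to -1.31 for Mboat2 and -0.014 to 0.29 for Chka.

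With the longest transcript as the length, mean levels over all samples, in CPM per kb, went from 47.9 to 60.3 for Lpcat1, 29.3 to 40.4 for Lpcat3, 6.69 to 8.43 for Mboat1, 4.38 to 6.16 for Mboat2, 9.36 to 23.0 for Mboat7 and 15.3 to 39.5 for Chka. Over all genes, the share of calls that were higher went with upper-quartile scaling from 41.1% to 30.2% in double against HER2 mutants, and with the replicate block from 46.0% to 21.1% in double against PIK3CA mutants and from 48.6% to 28.6% in the interaction.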
